A study of Mus musculus with 7 samples.

Results

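The genes described here are those of the major histocompatibility complex (MHC), the interferon-induced families, the interferon regulatory factors (IRF) and the signal transducers and activators of transcription (STAT), in sorted pancreatic beta cells of early weaned and suckling mice. They were chosen by symbol alone, as symbols that start with H2-, Ifi or Ifit, Oas, Irf, Gbp or Stat followed by a number or letter of the family, together with B2m, Tap1, Tap2, Tapbp, Isg15, Mx1, Mx2, Rsad2 and Nlrc5. The rule found 100 genes, measured by 122 probe sets, among 19938 genes and 21789 probe sets with 1 gene symbol. A further 16 probe sets match the rule but carry several symbols and were not used. H2-K1, H2-D1 and Isg15 were not analysed here. A few members share only the letters of the symbol: H2-Ke6 is a steroid dehydrogenase gene that lies within the MHC, and Irf2bp1, Irf2bp2 and Irf2bpl encode partners of IRF2 or their relatives and not IRF proteins.

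All 7 mice carried insulin-Cre and Rosa26-LSL-YFP on the ICR background, an outbred stock, and were studied at postnatal day 25. Of these, 3 had been weaned prematurely at postnatal day 18 and 4 were suckling. An insulin promoter drives the Cre recombinase, which switches on the yellow fluorescent protein for good in any cell that has used it, and 2000 to 6000 fluorescent cells were sorted per mouse for 1 Affymetrix array. The RNA was amplified before labelling. The sample descriptions carry one code in all weaned mice and another in all suckling mice, so that whatever it stands for cannot be told apart from weaning. Values are log2 intensities, and differences are weaned minus suckling. Throughout, values of the weaned mice are given in the order of replicates 4, 5 and 12 and those of the suckling mice in the order of replicates 2, 9, 11 and 12.

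Beta-cell transcripts were above background on every array. Iapp, the gene of islet amyloid polypeptide, read between 12.42 and 12.58 log2 units, Ins2 between 8.06 and 8.52, and Mafa between 5.57 and 6.06. Gcg, the glucagon gene of alpha cells, was also bright, between 11.73 and 12.32. So were the hormone genes Sst (11.46 to 12.22), Pyy (11.35 to 12.13) and Ppy (10.7 to 11.9) of other islet cells. The part of alpha and other islet endocrine cells in the RNA was not tested. The summed intensity of 12 acinar markers ran from 163 to 1182 in the weaned mice and from 228 to 4248 in the suckling mice, highest on suckling replicates 2 and 9. Xist marked 3 arrays and the Y-linked genes Eif2s3y, Uty and Kdm5d another 3, while weaned replicate 12 gave neither signal. The levels of these sex-linked genes where their signal was missing, 1.80 to 3.15 log2 units, served as the background range. At an adjusted p of 0.05, 3 of all 19938 genes passed (limma, 0.015%).

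Interferons are secreted alarm proteins of viral infection. They bind receptors that activate Janus kinases (JAK), which in turn phosphorylate STAT proteins. Complexes of STAT proteins with IRF9 bind a promoter motif called the interferon-stimulated response element (ISRE), and STAT dimers bind the related GAS element. MHC class I molecules, made of a heavy chain and beta-2-microglobulin, show peptides from inside any nucleated cell to cytotoxic T cells, while class II molecules are largely kept to antigen-presenting cells. In beta cells the pathway is known from autoimmune diabetes, in which islets overexpress class I molecules, and the STAT5 proteins carry the prolactin and growth hormone signals that beta cells use for growth.

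The members fell into bright and dim families. Both group means of 41 of the 100 members lay at or below 3.15, the upper end of the background range, against 27.1% of all genes, and 58 had both means above it. The brightest probe sets in these cells were those of Stat3 (8.18), the class I loading chaperone gene Tapbp (7.82), Gbp8 (7.53), Ifi30 (7.51), Irf2bp2 (7.25) and H2-Ke6 (7.23), in log2 units, with Ifitm2 just below (7.20). Levels of different probe sets cannot be set against each other as amounts of RNA, so they serve here only to place each gene against the background range.

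**Figure D1:**
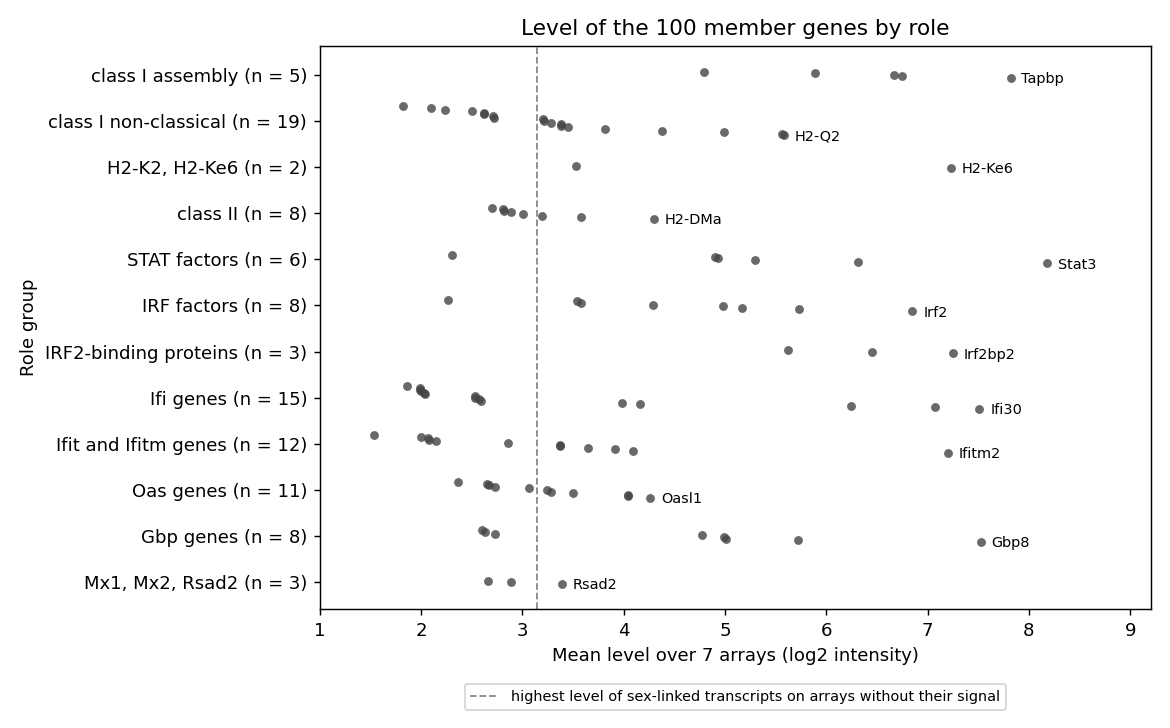
Mean log2 intensity over 7 arrays (x axis) of the 100 member genes, 1 point per gene, in 12 role groups (y axis), with the brightest gene of each group named. The dashed line at 3.15 log2 units is the upper end of the background range, and the Ifit, p200-type Ifi and Mx genes lie to its left.

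Many genes that an interferon response is known to raise were dim in both groups. All 5 measured Ifit genes, which encode antiviral RNA-binding proteins, had both means at background. Ifit1 read 2.55, 2.98 and 2.66 log2 units in the weaned mice and 3.17, 2.80, 2.92 and 2.90 in the suckling mice. Ifit3 read 2.09, 2.05 and 1.91 log2 units in the weaned mice and 2.45, 2.16, 2.34 and 2.06 in the suckling mice. The values of the groups interleave in Ifit1, and in Ifit3 all 7 lie within the background range.

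The same held for all 9 genes of the p200 family on chromosome 1 that the rule picked (symbols from Ifi202b to Ifi214). Their proteins sense DNA, and their mean levels ran from 1.99 to 2.59. The antiviral GTPase genes were at background too, Mx1 at 2.16, 2.80 and 2.80 log2 units in the weaned mice and 2.87, 2.79, 2.87 and 2.36 in the suckling mice and Mx2 at 2.89 in the mean of all arrays. Rsad2, which encodes viperin, lay barely above it at 3.39. Aim2, a sensor gene on chromosome 1 outside the rule, had both means above background, 3.62 in weaned and 3.82 in suckling mice. Of 11 Oas genes, whose products make the activator of the nuclease RNase L, 5 had both means at background and the highest mean was 4.26, that of Oasl1. The other 6 Oas genes had both means above background. A level at background sets no limit in molecules on the transcripts.

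The promoters of these dim genes are printed because they carry the motif the family is known for. RefSeq promoter windows of build GRCm38.p6, from 250 bases before to 50 bases after a gene start, were at hand for 78 of the 100 members. An ISRE-like match (GAAA, then NN for any 2 bases, then GAAA, on either strand) was found in 25 of the 78 genes (32.1%), against 3.44% of all 32851 windows and 3.99% of the genes in the promoter table. By family, it was in 7 of 9 p200 genes and 4 of 5 Ifit genes and in 0 of 22 H2 genes. Stretches of 60 bases around the match are given 5′ to 3′ on the strand of the gene, with the match in capitals.
Ifi203 (chr1:173942493-173942552, minus strand): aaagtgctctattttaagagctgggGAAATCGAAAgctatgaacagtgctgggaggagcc
Ifi205 (chr1:174031855-174031914, minus strand): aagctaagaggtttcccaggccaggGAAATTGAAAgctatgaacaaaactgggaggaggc
Ifi206 (chr1:173491324-173491383, minus strand): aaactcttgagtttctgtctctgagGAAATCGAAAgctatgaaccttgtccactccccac
Ifi207 (chr1:173741816-173741875, minus strand): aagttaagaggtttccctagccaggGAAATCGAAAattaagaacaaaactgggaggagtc
Ifi208 (chr1:173673582-173673641, plus strand): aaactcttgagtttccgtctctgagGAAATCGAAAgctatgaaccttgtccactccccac
Ifi213 (chr1:173599311-173599370, minus strand): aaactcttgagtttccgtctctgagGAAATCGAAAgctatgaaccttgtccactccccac
Ifi214 (chr1:173536002-173536061, minus strand): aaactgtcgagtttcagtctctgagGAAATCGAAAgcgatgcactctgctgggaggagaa

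The 7 p200 stretches share the core, and 6 of them hold it with the same central bases. Ifi208 and Ifi213 are identical over all 60 bases and Ifi206 differs from them in 1 position (59 of 60 identical). These stretches are promoter sequence, and whether the probe sets of the genes share signal was not tested. The least alike pair, Ifi206 and Ifi207, is identical at 28 of 60 positions. All 7 genes were at background, Ifi213 with the widest spread between mice at 3.42, 2.33 and 1.76 log2 units in the weaned mice and 2.89, 3.62, 1.47 and 2.51 in the suckling mice.

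An ISRE-like match was found in 4 of the 5 Ifit promoters, not in that of Ifit2, and these 4 hold 2 matches each, which read as TTTC, NN and TTTC where the motif lies on the other strand.
Ifit1 (chr19:34640769-34640828, plus strand): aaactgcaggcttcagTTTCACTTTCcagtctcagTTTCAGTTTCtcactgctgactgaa
Ifit1bl2 (chr19:34640770-34640829, minus strand): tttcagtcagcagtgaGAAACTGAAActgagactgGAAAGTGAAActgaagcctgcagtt
Ifit3 (chr19:34583365-34583424, plus strand): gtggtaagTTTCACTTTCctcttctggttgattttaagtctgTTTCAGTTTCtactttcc
Ifit3b (chr19:34607761-34607820, plus strand): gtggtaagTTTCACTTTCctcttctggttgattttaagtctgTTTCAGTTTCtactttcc

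Ifit1 and Ifit1bl2 are neighbours that face away from each other, and their stretches are the same chromosome 19 sequence read on opposite strands, shifted by 1 base. Ifit3 and Ifit3b are identical over the 60 bases. Members with a match were found at all levels. Of the 25 genes that hold it, 15 were at background and 10 above it, and it was found in 15 of 34 members at background (44.1%) and 10 of 44 members above it (22.7%). Among those above it were B2m, Ifitm2, Irf2, Stat2 and Gbp7. The GAS-like match TTCNNNGAA, which reads the same on both strands, was in 14 of 78 member genes (17.9%), against 8.3% of all windows and 9.55% of the genes in the promoter table. No match overlaps with the other motif except in Ifitm3, and a match is only a run of letters, not a site shown to be bound.

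**Figure D2:**
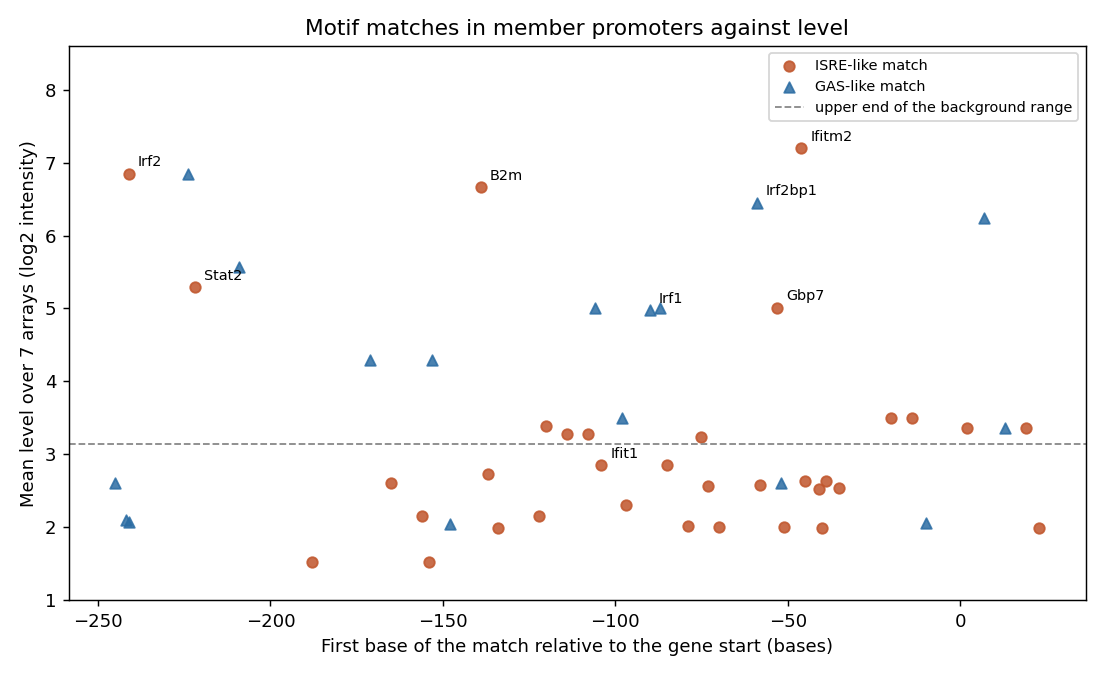
Each point is 1 match in a member promoter, by its first base relative to the gene start (x axis, bases) and the mean log2 intensity of the gene over 7 arrays (y axis), circles for ISRE-like and triangles for GAS-like matches. ISRE-like matches occur on both sides of the dashed line at 3.15 log2 units, 15 genes below it and 10 above.

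The comparison of weaned with suckling mice asks whether the levels of these genes in the sorted cells differ after early weaning. No member passed over all genes (limma with Benjamini-Hochberg adjustment), and the lowest adjusted p among the 100 was 0.313, that of Ifi30. The unadjusted p was under 0.05 for 14 of the 100, against 7.58% of all genes. They comprised 10 higher in weaned mice, where all genes give 4.39%, and 4 lower, where all genes give 3.19%. The count ran from 7 to 18 with 1 array left out (all genes, 5.87% to 7.78%). It was 5 when suckling replicates 2 and 9, whose acinar markers were brightest, were left out together (all genes, 5.46%). Only 10 of these 14 lay above background in both groups, out of 58 (17.2%, against 8.45% of all genes above background). The groups did not overlap for 8 of the 58 (13.8%, against 8.1% of all genes above background).

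The differences of the members centred near 0. The median log2 difference was 0.026, against 0.00047 over all genes, and 53 of 100 had a higher mean in weaned mice, against 50.1% of all genes. The groups did not overlap for 9 members, 6 higher (all genes, 3.9%) and 3 lower (all genes, 3.43%), where all genes together give 7.32%. The median standard error of a member was 0.15. Since the arrays read bulk RNA of sorted cells, fewer cells of a type and less RNA per cell cannot be told apart in any of these values.

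**Figure D3:**
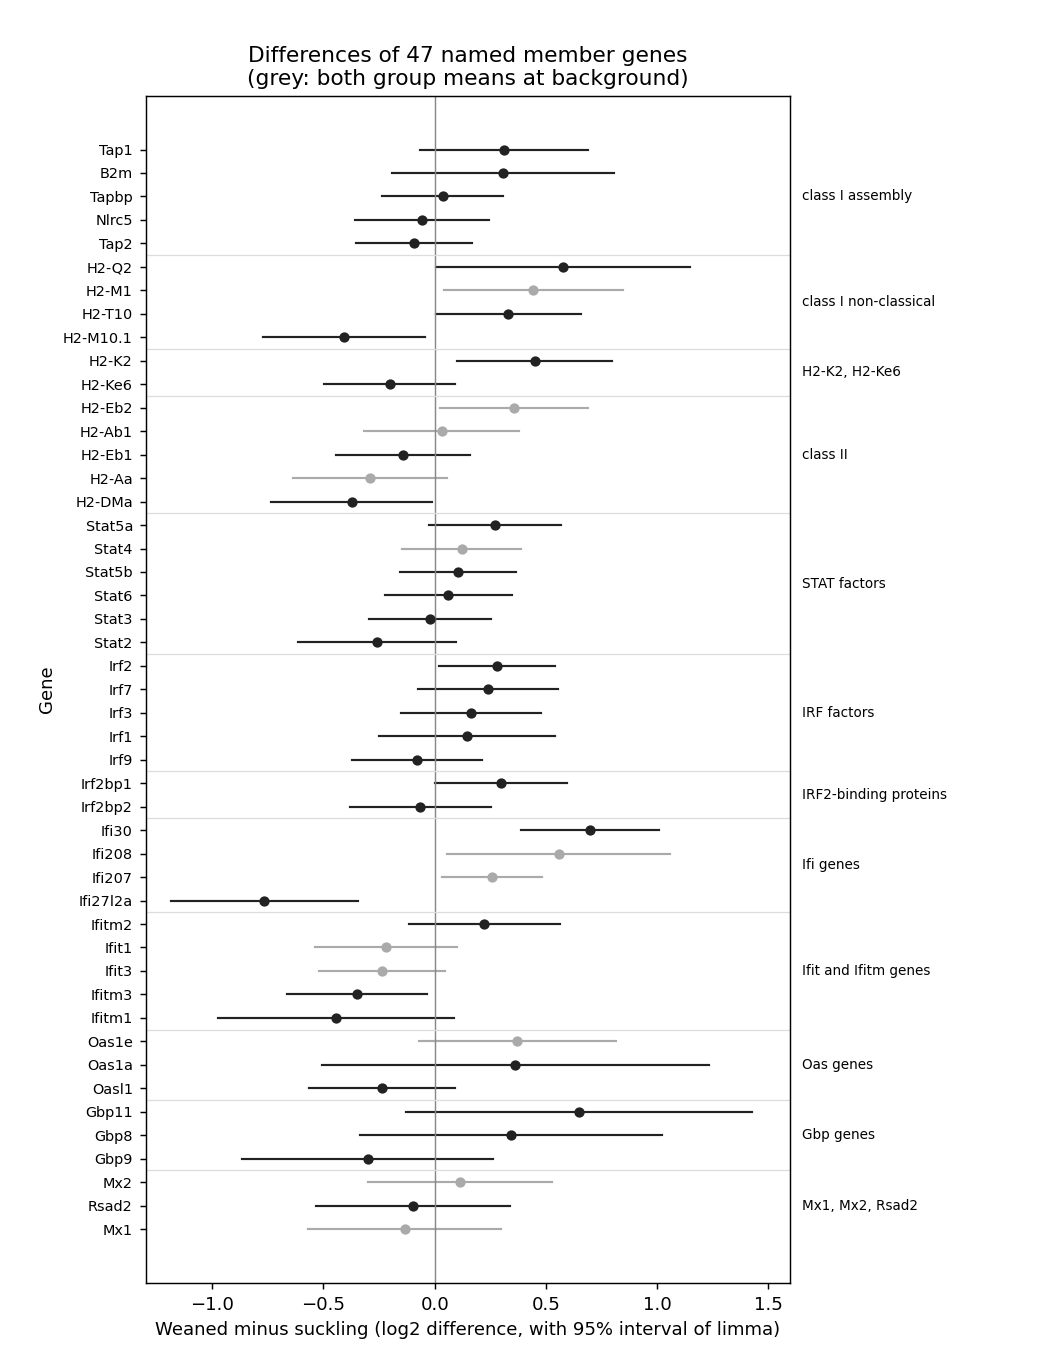
Log2 difference of weaned minus suckling (x axis, with the 95% interval of limma as a line) for 47 named members, grouped by role on the y axis, grey where both group means lie at background. Ifi30 (0.70) and Ifi27l2a (-0.77) lie farthest from 0 relative to their intervals, and no member passed over all genes.

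The genes that build and load class I molecules were all well above background, and none passed. B2m, which encodes beta-2-microglobulin, read 6.96, 6.99 and 6.57 log2 units in the weaned mice and 6.94, 5.95, 6.57 and 6.68 in the suckling mice. Suckling replicate 9 is the low array, and the groups overlap, since suckling replicate 2 reads nearly as high as the brightest weaned mice. Its log2 difference was 0.31 (95% interval -0.19 to 0.81, adjusted p = 0.792, limma), and it ran from 0.11 to 0.44 with 1 array left out.

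Tap1 and Tap2 encode both chains of the pump that carries peptides into the endoplasmic reticulum. Tap1 read 5.26, 4.90 and 4.76 log2 units in the weaned mice and 4.57, 4.45, 5.01 and 4.62 in the suckling mice, with suckling replicate 11 inside the weaned range, and differed by 0.31 (SE 0.17, adjusted p = 0.702), or 0.17 to 0.43 with 1 array left out. Tap2 differed by -0.093 (95% interval -0.35 to 0.17). Tapbp, the gene of tapasin, which bridges the pump and the empty class I molecule, was level across the mice at 7.74, 8.08 and 7.70 log2 units in the weaned mice and 7.79, 7.76, 7.82 and 7.83 in the suckling mice, a difference of 0.036 (95% interval -0.24 to 0.31). Nlrc5, the transactivator of class I genes, is covered by 19 probe sets that disagree in level, with means from 1.88 to 6.75 log2 units. The brightest stood for the gene and differed by -0.056, and over the 19 the differences ran from -0.21 to 0.17. Several of the 19 read the same value on more than 1 array.

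The 250 bases before the start of B2m are printed as the example of a bright member whose window holds an ISRE-like match, in capitals.
B2m (chr2:122147437-122147686, plus strand): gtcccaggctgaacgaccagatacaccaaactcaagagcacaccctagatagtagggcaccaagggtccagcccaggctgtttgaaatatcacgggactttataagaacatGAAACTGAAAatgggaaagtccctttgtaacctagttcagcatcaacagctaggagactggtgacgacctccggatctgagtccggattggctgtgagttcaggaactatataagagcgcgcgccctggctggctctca

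Genes outside the rule serve the same step. Of 18 measured genes for class I peptide loading, trimming and transcription, 14 had a higher mean in weaned mice (all genes, 50.1%). Of the 13806 genes with both means above background, as the 18 had, 7551 had a higher mean in weaned mice. The median log2 difference of the 18 was 0.098 (all genes, 0.00047, genes above background, 0.021), and none of the 18 passed. The smallest p was that of Psmb9, a catalytic subunit of the immunoproteasome, at 7.40, 7.47 and 7.27 log2 units in the weaned mice and 7.11, 7.03, 7.22 and 6.64 in the suckling mice. Its groups did not overlap, and it differed by 0.38 (SE 0.15, adjusted p = 0.634). Psme2, a subunit of the proteasome activator PA28, differed by 0.41 (SE 0.21), with suckling replicate 2 low at 7.21 and suckling replicate 12 inside the weaned range at 8.15.

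Among the other class I genes, the H2-Q and H2-T genes were above background and most H2-M genes were not. H2-Q2, a gene of the Qa region, read 6.22, 5.87 and 5.63 log2 units in the weaned mice and 5.89, 5.17, 5.52 and 4.75 in the suckling mice. It spanned 1.47 log2 units over the arrays, a range that 1.53% of all genes reach, with suckling replicate 12 lowest and suckling replicate 2 within the weaned values. Its difference was 0.58 (SE 0.25, adjusted p = 0.653, limma), or 0.38 to 0.76 with 1 array left out.

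H2-T10 is listed as a transcribed pseudogene in RefSeq and read 4.45, 4.90 and 4.34 log2 units in the weaned mice and 4.33, 4.16, 4.21 and 4.23 in the suckling mice. The groups did not overlap, but the lowest weaned and the highest suckling value are all but equal, and the difference was 0.33 (SE 0.15, adjusted p = 0.653), or 0.16 to 0.44 with 1 array left out. H2-K2, another transcribed pseudogene of the complex, was dim at 3.74, 4.12 and 3.49 log2 units in the weaned mice and 3.23, 3.44, 3.26 and 3.42 in the suckling mice. Its groups did not overlap, and it differed by 0.45 (SE 0.15, adjusted p = 0.577), or 0.28 to 0.60 with 1 array left out. Class I genes are close copies of each other, so a probe set named for one may read others too.

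Of 12 H2-M genes, 8 had both means at background and 4 lay above it. H2-M3, which presents formylated bacterial and mitochondrial peptides, was the brightest at 5.56 and differed by -0.20 (SE 0.15). H2-M10.1, a relative known from the vomeronasal organ, was near background and lower in weaned mice at 2.91, 3.28 and 3.26 log2 units in the weaned mice and 3.83, 3.70, 3.38 and 3.31 in the suckling mice, without overlap (-0.41, SE 0.16, adjusted p = 0.634). H2-M1 differed by 0.44, with both means at background. H2-Ke6, the dehydrogenase gene, read 6.95 to 7.49 over the arrays and differed by -0.20 (SE 0.13).

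**Figure D4:**
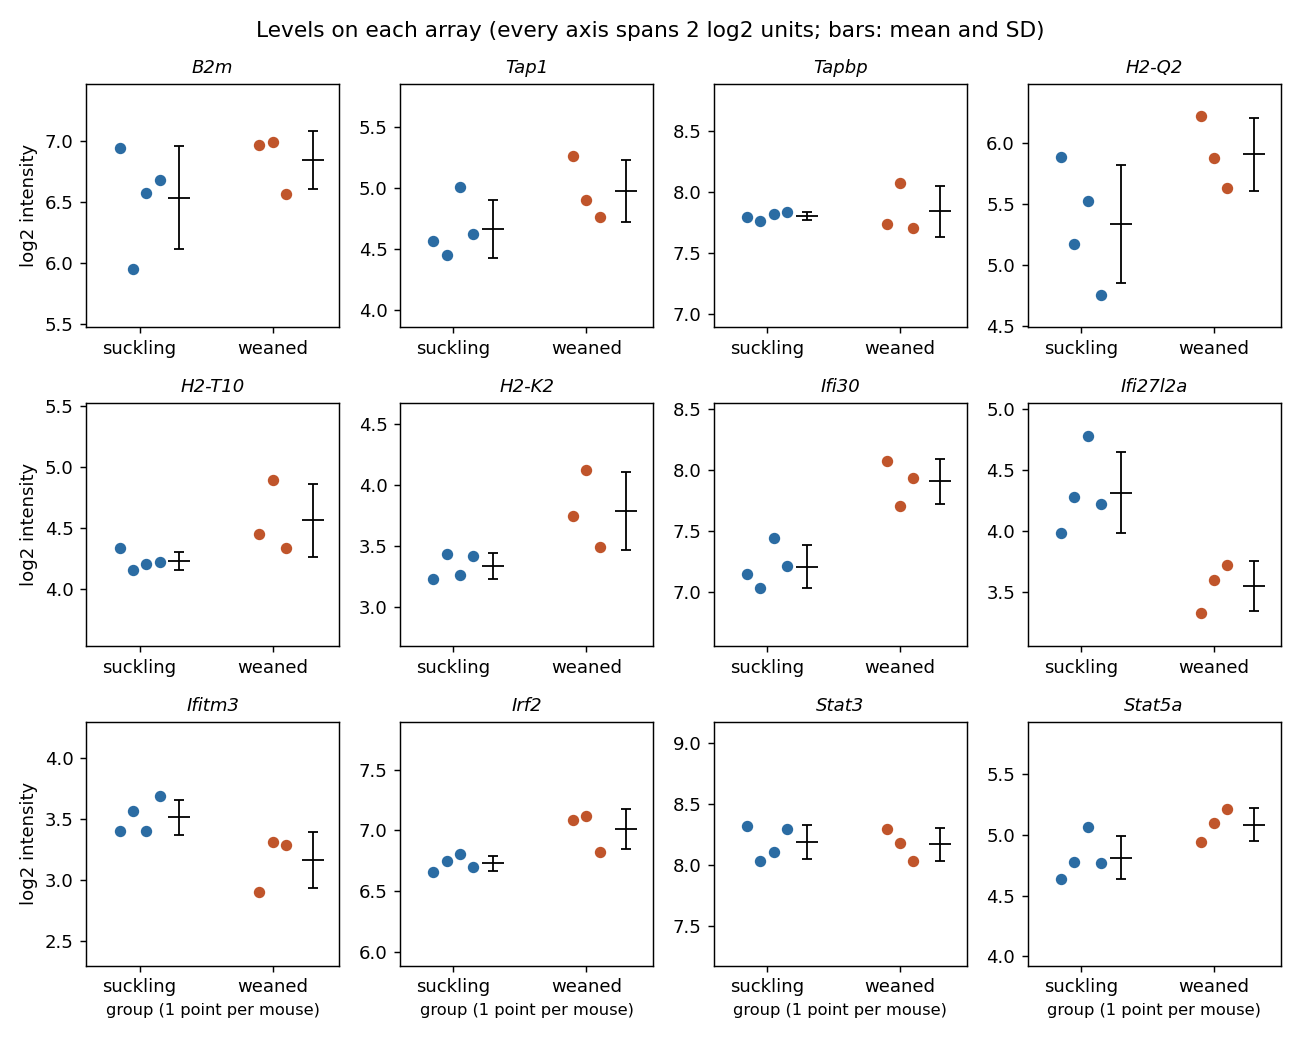
Log2 intensity (y axes, each spanning 2 log2 units) of 12 members in suckling (blue, 4 mice) and weaned mice (orange, 3 mice), 1 point per mouse, with the group mean and SD beside the points. Groups do not overlap for H2-T10, H2-K2, Ifi30, Ifi27l2a, Ifitm3 and Irf2, and none of the 12 passed over all genes.

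Class II genes were at or near background, as were most leukocyte markers. The chains of the I-A molecule gave no signal above it, H2-Aa with means of 2.72 and 3.02 log2 units in weaned and suckling mice and H2-Ab1 with 2.83 and 2.80. H2-Eb1, a chain of the I-E molecule, read 3.33 to 3.79. H2-DMa, which helps load class II molecules, was the brightest of the 8 at 3.80, 4.06 and 4.40 log2 units in the weaned mice and 4.61, 4.21, 4.53 and 4.49 in the suckling mice. Its groups overlap through weaned replicate 12, and it differed by -0.37 (SE 0.16, adjusted p = 0.651), or -0.53 to -0.23 with 1 array left out. H2-Eb2 differed by 0.36 with both means at background.

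Of 19 measured leukocyte markers, 8 had both means at background, among them Ptprc, Adgre1, Csf1r and Lyz2, which mark leukocytes and macrophages. The invariant chain gene Cd74 read 3.50, 2.85 and 2.82 log2 units in the weaned mice and 3.85, 3.08, 3.73 and 2.63 in the suckling mice, and Ciita, the class II transactivator, 3.17 to 3.63 over all arrays. The summed intensity of the 19 was 415 to 475 in the weaned mice and 352 to 450 in the suckling mice, of which C1qa alone, a complement gene, made up more than any other marker at 8.21, 7.94 and 8.09 log2 units in the weaned mice and 8.04, 7.45, 7.80 and 7.65 in the suckling mice.

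STAT genes were above background in both groups, except Stat4, and none passed. Stat3, which carries signals of interleukin 6 and leptin, read 8.30, 8.18 and 8.03 log2 units in the weaned mice and 8.32, 8.04, 8.11 and 8.30 in the suckling mice, a spread of 0.29 log2 units, and 92.3% of all genes spread at least as far. Its difference was -0.022, with a 95% interval of -0.30 to 0.25. Of the STAT5 pair, Stat5a read 4.94, 5.10 and 5.21 log2 units in the weaned mice and 4.64, 4.78, 5.06 and 4.77 in the suckling mice. Only suckling replicate 11 lay within the weaned values, and the difference was 0.27 (SE 0.13, adjusted p = 0.68). Stat5b, the brighter probe set at 6.31, differed by 0.10 (95% interval -0.16 to 0.37).

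Stat2, of type I interferon signalling, was lower in mean in weaned mice, at 5.36, 4.93 and 5.15 log2 units in the weaned mice and 5.30, 5.14, 5.51 and 5.66 in the suckling mice, and the groups overlap (-0.26, SE 0.16, or -0.37 to -0.15 with 1 array left out). Stat6, of interleukin 4 signalling, differed by 0.061 (95% interval -0.23 to 0.35), and Stat4, of interleukin 12 signalling, was at background. None of the 6 had an unadjusted p under 0.05.

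None of the IRF genes passed. Of 8 measured, 6 were higher in mean after weaning (all genes, 50.1%) and 2 lower, Irf8 and Irf9. The median log2 difference was 0.14 (all genes, 0.00047, genes with both means above background, 0.021). An unadjusted p under 0.05 was found for 1 of the 8, where all genes give 7.58%. That was Irf2, an antagonist of IRF1 at many promoters, at 7.09, 7.12 and 6.82 log2 units in the weaned mice and 6.66, 6.75, 6.81 and 6.70 in the suckling mice. The groups did not overlap, although weaned replicate 12 and suckling replicate 11 nearly touch, and the difference was 0.28 (SE 0.12, adjusted p = 0.641, limma). With 1 array left out it ran from 0.23 to 0.38.

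Irf3, which is activated by nucleic acid sensors, differed by 0.16 (SE 0.14), and its weaned values of 5.91, 5.50 and 6.05 lie on both sides of the suckling ones. Irf7, the amplifier of type I interferon production, was dim at 3.77, 3.97 and 3.41 log2 units in the weaned mice and 3.44, 3.45, 3.49 and 3.52 in the suckling mice and differed by 0.24 (SE 0.14). Irf1, an early target of interferon gamma, differed by 0.15 on its brighter probe set and by -0.13 on the other. Irf9, the DNA-binding partner of STAT2, differed by -0.08 (95% interval -0.37 to 0.21), Irf5 and Irf8, factors of immune cells, read means of 3.54 and 4.29, and Irf4 was at background. Of the IRF2 partners, Irf2bp1 read 6.85, 6.35 and 6.67 log2 units in the weaned mice and 6.34, 6.27, 6.32 and 6.36 in the suckling mice and differed by 0.30 (SE 0.13), with weaned replicate 5 within the suckling values. With 1 array left out Irf1 ran from -0.045 to 0.30, Irf3 from 0.049 to 0.33, Irf7 from 0.11 to 0.39 and Irf2bp1 from 0.19 to 0.43.

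The 250 bases before the starts of Irf1 and Irf2 are shown for their motifs, a GAS-like match in Irf1 and an ISRE-like match followed by a GAS-like one in Irf2, all in capitals.
Irf1 (chr11:53769764-53770013, plus strand): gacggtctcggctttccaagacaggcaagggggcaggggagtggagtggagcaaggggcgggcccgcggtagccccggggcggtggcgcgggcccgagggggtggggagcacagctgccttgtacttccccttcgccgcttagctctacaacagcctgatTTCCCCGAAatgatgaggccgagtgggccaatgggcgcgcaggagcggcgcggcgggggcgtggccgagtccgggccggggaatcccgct
Irf2 (chr8:46739495-46739744, plus strand): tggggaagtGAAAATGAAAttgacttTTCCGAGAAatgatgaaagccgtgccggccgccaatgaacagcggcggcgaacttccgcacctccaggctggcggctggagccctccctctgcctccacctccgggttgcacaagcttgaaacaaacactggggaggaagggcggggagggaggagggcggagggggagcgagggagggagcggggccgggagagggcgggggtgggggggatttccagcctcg

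Ifi30 was the member with the smallest p and the clearest separation of the groups. It encodes the lysosomal thiol reductase GILT, which unfolds proteins for class II presentation and is known for its induction by interferon gamma. It read 8.08, 7.71 and 7.94 log2 units in the weaned mice and 7.15, 7.03, 7.44 and 7.22 in the suckling mice, so that the lowest weaned mouse lay above the highest suckling mouse. The means were 7.91 ± 0.19 log2 units (SD, n = 3) and 7.21 ± 0.17 (n = 4), 1.62-fold higher in weaned mice. The log2 difference was 0.70 (SE 0.14, 95% interval 0.39 to 1.01), and it missed the threshold over all genes (limma, adjusted p = 0.313). It ran from 0.61 to 0.80 with 1 array left out and was 0.58 without suckling replicates 2 and 9.

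Of the 19 leukocyte markers, 11 had a lower mean in weaned mice, and the median difference was -0.077 (log2). An unadjusted p under 0.05 was found for 3 of the 19, where all genes give 7.58%. All 3 were higher in weaned mice (all genes, 4.39%), among them C1qa (0.34), whose groups overlap. The markers C1qb (-0.23) and C1qc (-0.10) were lower in mean in weaned mice. The other 2 of the 3 encode signalling adaptors and did not overlap, where all genes give 7.32%. Fcer1g read 4.31, 4.20 and 4.20 log2 units in the weaned mice and 3.56, 3.77, 3.98 and 3.70 in the suckling mice. Tyrobp read 3.42, 3.37 and 3.47 log2 units in the weaned mice and 3.03, 3.18, 3.28 and 2.99 in the suckling mice. The list's summed intensity, given above, overlaps between the groups, and Ptprc, Adgre1, Csf1r and Lyz2 are at background in both. The part of leukocytes in the Ifi30 difference was not tested. Of the 6 class II partners measured, Ifi30 itself among them, 2 had a higher mean in weaned mice, the other being Ciita (0.054). On the lower side were Ctss, the gene of the protease cathepsin S, at -0.37 (SE 0.13), and Cd74 at -0.27.

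The Ifi30 promoter is printed up to the gene start because it holds neither an ISRE-like nor a GAS-like match in this window, so no base is in capitals.
Ifi30 (chr8:70766664-70766913, minus strand): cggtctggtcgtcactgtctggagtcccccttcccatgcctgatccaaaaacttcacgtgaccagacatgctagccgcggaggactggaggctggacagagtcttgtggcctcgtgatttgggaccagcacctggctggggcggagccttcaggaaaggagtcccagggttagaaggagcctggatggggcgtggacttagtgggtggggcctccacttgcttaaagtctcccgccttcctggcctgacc

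The next smallest p among the members pointed the opposite way. Ifi27l2a, an interferon-induced gene of a mitochondrial protein family, read 3.33, 3.59 and 3.72 log2 units in the weaned mice and 3.98, 4.27, 4.78 and 4.22 in the suckling mice. All weaned mice lay below all suckling mice, and the difference was -0.77 (SE 0.19, adjusted p = 0.418, limma). With 16 added to the intensity before the log, which weighs dim values less, it was -0.38. Its relatives did not share the direction, with Ifi27 at 0.21 (SE 0.19) and Ifi27l2b at 0.031 (SE 0.13). Ifi35 read a mean of 6.24 and differed by 0.062 (SE 0.16). Among the p200 genes Ifi207 (0.26) and Ifi208 (0.56) had an unadjusted p under 0.05, both with means at background.

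The Ifitm genes, whose proteins block the entry of viruses, split by level. Ifitm2 was bright at 7.19, 7.21 and 7.57 log2 units in the weaned mice and 7.20, 6.79, 7.20 and 7.20 in the suckling mice and differed by 0.22 (SE 0.15), and its 3 probe sets differed by 0.12 to 0.41. Ifitm3 was close to background at 2.90, 3.31 and 3.29 log2 units in the weaned mice and 3.40, 3.57, 3.40 and 3.69 in the suckling mice, lower in weaned mice without overlap (-0.35, SE 0.14, adjusted p = 0.634). Ifitm1 differed by -0.44 (SE 0.24) on the brighter of its probe sets and by -0.65 on the other, with suckling replicate 11 highest on both. With 1 array left out Ifitm1 ran from -0.63 to -0.26, Ifitm2 from 0.10 to 0.29 and Ifitm3 from -0.42 to -0.22.

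Some members differed far more between single mice than between the groups. The 4 Gbp genes on chromosome 5, which encode GTPases that attack the membranes around pathogens, spanned a median of 1.47 log2 units over the arrays, against 0.57 for all genes. Gbp8 read 7.38, 8.19 and 7.60 log2 units in the weaned mice and 6.86, 7.51, 8.12 and 7.02 in the suckling mice. Gbp11, a transcribed pseudogene in RefSeq, read 4.99, 5.36 and 5.08 log2 units in the weaned mice and 3.72, 4.74, 5.43 and 4.08 in the suckling mice. In both, weaned replicate 5 and suckling replicate 11 were the high arrays and suckling replicates 2 and 12 the low ones.

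Gbp4 kept another order, at 4.80, 6.43 and 5.88 log2 units in the weaned mice and 5.09, 6.36, 5.98 and 5.49 in the suckling mice, with weaned replicate 5 and suckling replicate 9 high and weaned replicate 4 low. The groups overlap in each, with differences of 0.34 (SE 0.30), 0.65 (SE 0.35) and -0.026 (SE 0.39) in Gbp8, Gbp11 and Gbp4. With 1 array left out Gbp8 ran from 0.11 to 0.59 and Gbp11 from 0.39 to 0.96. These are near copies side by side on the chromosome, and their probe sets may read each other's transcripts. Of the 4 Gbp genes on chromosome 3, 3 were at background, and Gbp7 read a mean of 5.01.

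Oas1a spread as widely, at 3.89, 3.29 and 3.96 log2 units in the weaned mice and 2.78, 2.93, 4.55 and 3.14 in the suckling mice. Suckling replicate 11 is the highest and suckling replicate 2 the lowest array, and only 0.702% of all genes span the 1.77 log2 units it does. Its difference was 0.36 (SE 0.39). It ran from 0.17 to 0.76 with 1 array left out and was -0.13 when suckling replicates 2 and 9 were left out together. Oas2 separated the groups by little, at 4.14, 4.07 and 4.15 log2 units in the weaned mice and 3.93, 3.98, 3.99 and 4.01 in the suckling mice (0.14, SE 0.10).

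**Figure D5:**
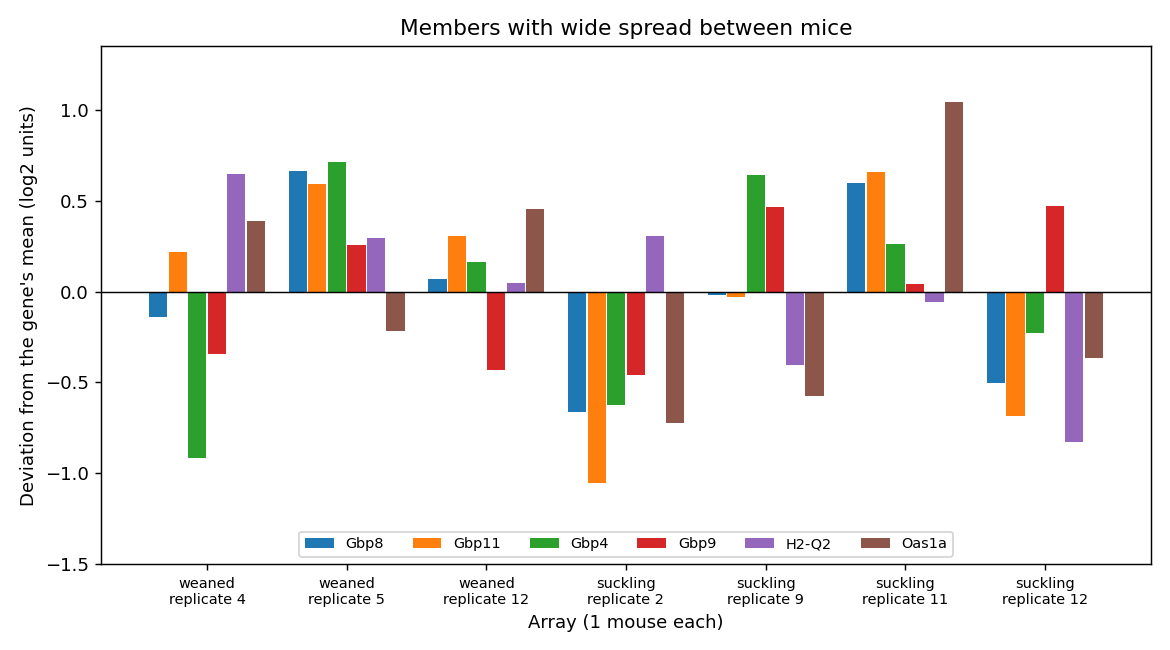
Deviation of each array from the mean of the gene over 7 arrays (y axis, log2 units) for 6 members, by array (x axis, 1 mouse each). Gbp8 and Gbp11 are high in weaned replicate 5 and suckling replicate 11 and low in suckling replicates 2 and 12, while Gbp4, Gbp9, H2-Q2 and Oas1a follow other orders.

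The highest and lowest values were spread over all mice. Among the 58 members above background, weaned replicate 5 held the highest value for 13 and suckling replicates 9 and 11 for 5 each, and suckling replicate 2 held the lowest for 13. Over all 13806 genes above background suckling replicate 2 also held the lowest value most often (23.2%, against 22.4% of the members), while weaned replicate 5 held the highest for 12.7%, against 22.4% of the members.

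Most genes upstream of the members had signal in both groups, and none passed. All 9 measured receptor and Janus kinase genes were above background. Jak1 read 8.47 to 8.83, and the receptor chains of type I interferon, Ifnar1 and Ifnar2, 6.02 to 6.65 and 6.55 to 7.02. Those of interferon gamma, Ifngr1 and Ifngr2, read 5.46 to 6.11 and 6.96 to 7.52. Ifnlr1, a receptor chain of the lambda interferons, was near background and lower in weaned mice without overlap (-0.32, SE 0.13, adjusted p = 0.634). Among 17 inhibitors, 1 had an unadjusted p under 0.05, where all genes give 7.58%: Pias3, an inhibitor of STAT3 (0.60, SE 0.19, adjusted p = 0.552), with suckling replicate 11 inside the weaned range. Of 17 sensor and adaptor genes 2 had one, near the share of all genes, both higher in weaned mice (all genes, 4.39%). They were Dhx58 (0.54), with 1 mean at background, and the kinase gene Eif2ak2 (0.40). Of the 17, 12 had both means above background, while Cgas, Sting1 and Tlr7 had both at background.

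Interferon-induced genes outside the rule went both ways. Of 39 measured, 9 had an unadjusted p under 0.05, 6 higher and 3 lower, where all genes give 7.58%, the median log2 difference was 0.057, and none passed over all genes. The groups did not overlap for 8 of the 39, 6 higher and 2 lower, where all genes give 7.32%. On the higher side were Lgals3bp, a secreted glycoprotein gene, at 8.91, 9.27 and 9.15 log2 units in the weaned mice and 8.73, 8.75, 8.88 and 8.77 in the suckling mice, and Trim25, a ubiquitin ligase gene of the RIG-I pathway (0.28, SE 0.11). Ddx60 (0.47) was higher near background, and Psmb9, Dhx58 and Eif2ak2, given above, complete the 6. Cxcl11, named after its values were seen, was higher without overlap (0.58, SE 0.26, adjusted p = 0.653). On the lower side were Cxcl10, the gene of a chemokine that binds the same receptor as that of Cxcl11, at 3.48, 3.47 and 3.03 log2 units in the weaned mice and 4.01, 3.68, 4.15 and 3.80 in the suckling mice (-0.58, SE 0.16, adjusted p = 0.505), the tetherin gene Bst2 (-0.29, SE 0.12) and Rnf213 (-0.47, SE 0.20). The list was drawn up with earlier results of these data in view.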

How the data were processed

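Intensity per probe set was deposited for each array. RMA and Partek 6.6 are named in the submitters' processing notes, without order or settings. The values run from 1.45 to 12755, a linear scale, so log2 was taken. Array medians lie between 14.1 and 14.9. All 7 columns were used, with 0 left out, and no 2 arrays were identical. Each array is 1 mouse, and their number limits the precision.

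Probe sets with 1 symbol in the platform annotation were used (21789 of 35556), and the brightest stood for a gene (19938 genes). Symbols were matched by gene ID to RefSeq, GRCm38.p6 (100 of 100 members, none renamed). That table and its promoters give names, chromosomes and sequences. The array annotation names no build, so no probe coordinates are given.

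Groups were compared with limma 3.58.1 in R 4.3.3 (lmFit, eBayes, two-sided), with p-values adjusted by Benjamini and Hochberg's method across all genes, at 0.05, and no filter on dim genes. In 20 simulated draws with 200 of 19938 genes changed, it recovered 37.5% of genes changed 1.5-fold, 95.2% at 2-fold and 100% at 4-fold. The draws used independent normal noise with the moderated variance of each gene and no effects shared by arrays, so these rates may not hold here. The acinar marker Ctrb1, for one, differed 6.58-fold between the groups and did not pass (adjusted p = 0.68, limma). Named genes were members at an unadjusted p under 0.05, in each of 12 role groups the 2 with the smallest p, the widest difference and the brightest, and a fixed set of 28, of which 4 were not analysed here, and from the pathway lists genes at an unadjusted p under 0.05 and the 2 with the smallest p. Other genes, such as Gbp4, Gbp7, H2-M3, Ifi27, Ifi213, Oas2, Fcer1g and Tyrobp, were named after their values were seen. The background range was set after the data were seen, and members and the 14 lists were chosen with earlier results of these data known.

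Alternatives were limma-trend with a robust prior, quantile normalization, median centring over all probe sets or, added after seeing the data, over genes, filters on level, the mean of probe sets, each probe set alone, array weights, an offset of 16 before the log, an adjusted threshold of 0.1, and leaving out arrays.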

Additional observations from a re-analysis of the deposited data

Results flagged for a closer look

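Among the 47 named members, 2 had a suckling array far from the other 3 by the gap between it and the nearest array relative to the whole range of the group (critical ratio 0.829). For values without ties, chance gives about 1 such group in 20. Ifitm2 read 6.79 on suckling replicate 9, while the other suckling arrays all read 7.20, alike to 4 decimals. That rate therefore does not apply to Ifitm2. Equal values also occur in other probe sets, as in the dimmer Irf1 one, 4.4204 on weaned replicate 5 and suckling replicates 2 and 12. Several Nlrc5 probe sets hold them too, 1 of them 2.3431 on weaned replicate 5 and all suckling arrays. The cause of the equal values was not tested. Mx1 read 2.36 on suckling replicate 12, against 2.79 to 2.87 on the other suckling arrays, all of them within the background range.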

How the results depend on the processing

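Across 19 alternatives no member passed an adjusted p of 0.05, and all 766 values of the 47 named members kept their side of the threshold. Of those genes 36 kept their direction throughout, and 11 turned in at least 1 alternative. The number of genes passing over the whole table was 3, and it became 9 with limma-trend and a robust prior, 5 with quantile normalization, 6 with arrays centred on their medians over all probe sets, 7 with a level filter at the 25th percentile, 8 with one at the median, 5 with the mean of probe sets, 9 on single probe sets, 7 at a threshold of 0.1, and 0 without suckling replicates 2 and 9. It ran from 1 to 3 with 1 array left out. The number of members at an unadjusted p under 0.05 was 14 (all genes, 7.58%). With the filters, which test 61 and 34 members, it became 9 and 5 (all genes, 8.27% and 9.11%). It was 6 with 16 added before the log (all genes, 8.04%) and 5 without suckling replicates 2 and 9 (all genes, 5.46%). It ran from 7 to 18 with 1 array left out, with 7 lacking either weaned replicate 4 or suckling replicate 9 and 8 lacking either weaned replicate 5 or suckling replicate 2. The share over all genes was 5.46% to 9.11% across these fits. The split of the members, 10 higher and 4 lower, was 12 to 3 with arrays centred over all probe sets and 6 to 5 with arrays centred over genes, and that over all genes, 875 to 637, was 1184 to 434 and 728 to 787. The median difference of the members, 0.026, was 0.083 with the filter at the median of level and 0.060 with centring over all probe sets, which moved every gene by 0.035, and 0.0061 with centring over genes, 0.0066 with 16 added before the log and -0.00056 on single probe sets. No paired analysis was possible because the groups share only 1 replicate number. The cause of these changes was not tested, apart from the fewer genes or arrays that some fits hold.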
